A study of Homo sapiens with 6 samples.

Results

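Small nucleolar RNA (snoRNA) host genes are transcribed as longer RNAs, and the snoRNAs are cut out of their introns. The members described here are 32 genes, chosen by name from the 58395 genes listed for each library: 28 whose symbol is SNHG followed by a number, and GAS5, ZFAS1, DANCR and EPB41L4A-AS1. Their RNA is measured in HCT116, a line of human colorectal cancer cells, cultured in DMEM medium with fetal bovine serum. There are 2 groups of 3 libraries, from 3 biological replicates each: shControl carries a non-target hairpin and shSTBD1 a hairpin against STBD1, a glycogen-binding protein that acts as a cargo receptor for autophagy. The hairpins are delivered by lentivirus into puromycin-selected cells, STBD1 is targeted by a single hairpin sequence, and both groups carry a viral hairpin construct, so neither is an untreated culture.

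A snoRNA of the box C/D kind guides the addition of methyl groups to the ribose of ribosomal RNA, and a snoRNA of the box H/ACA kind guides the conversion of uridine to pseudouridine. After splicing, the exons of a host gene are left as a long RNA that often holds no long reading frame, and many such RNAs are degraded by nonsense-mediated decay when ribosomes run over them. A number of host genes start with a stretch of C and T bases, the terminal oligopyrimidine (TOP) element, which also opens the mRNAs of ribosomal proteins. Several spliced host RNAs, among them GAS5, which accumulates in growth-arrested cells, are studied as RNAs with functions of their own in cancer cells.

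Runs of C and T were sought near the annotated starts. A run near a start is not by itself a TOP element, which opens the transcript. A window around the annotated RefSeq start (GRCh38.p14) is present for 28 of the 32 members. An unbroken run of at least 6 C or T bases, read on the gene's strand and with a base within 10 bases of the start, is found in 18 of these 28 members, or 64.3%. The same run is found in 31.9% of 35116 RefSeq promoters and in 82.4% of 85 ribosomal protein promoters. The other 10 members have no such run. The RefSeq windows of GAS5, SNHG14 and SNHG3 lie outside the positions that the gene annotation used below gives for these genes. Their runs are counted in these shares and, for GAS5 and SNHG3, in the medians by run given further on. The median longest run near the start is 6 bases in the members, 4 bases in all promoters and 11 bases in ribosomal protein genes. The E box CACGTG, whose letters read the same on both strands, is found in the 300 bases around the start of 2 of 28 members, SNHG7 and SNHG30, a share of 7.14% against 7.26% of all promoters. A match of these letters is a description of the window and not a sign that a factor binds there. The windows below belong to members whose levels are described in detail. They hold 30 bases before and 30 bases from the start, and the capitals mark the longest run of C and T with a base within 10 bases of the start. The SNHG29 window is chr17:16438957-16439016 on the plus strand, that of SNHG1 chr11:62855856-62855915 on the minus strand, that of ZFAS1 chr20:49278612-49278671 on the plus strand, that of SNHG12 chr1:28581844-28581903 on the minus strand and that of SNHG5 chr6:85678704-85678763 on the minus strand.
SNHG29: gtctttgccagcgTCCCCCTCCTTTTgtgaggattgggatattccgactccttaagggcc
SNHG1: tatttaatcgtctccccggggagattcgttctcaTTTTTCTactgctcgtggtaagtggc
ZFAS1: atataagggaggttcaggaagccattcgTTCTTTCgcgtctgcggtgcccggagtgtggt
SNHG12: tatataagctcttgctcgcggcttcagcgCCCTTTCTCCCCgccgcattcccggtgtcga
SNHG5: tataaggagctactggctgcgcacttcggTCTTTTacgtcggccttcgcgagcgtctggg
Among these 5 windows the marked run is longest in SNHG29, with 13 bases that end before the start, and in SNHG12, with 12 bases across it.

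The annotation (GENCODE release 44) places 140 snoRNA gene entries inside 30 of the 32 members, of which 84 lie in SNHG14. SNORA16A in SNHG12 and SNORA17B in SNHG7 are each listed more than once, as overlapping entries, so distinct snoRNAs are fewer. GAS5, known as a host of box C/D snoRNAs, and SNHG28 hold none in the annotation used here, so they are outside the counts by kind of snoRNA. Counting small Cajal body RNAs among the 140, 14 members hold at least 1 box C/D snoRNA gene and 14 at least 1 box H/ACA snoRNA gene. SNHG29 holds 3 box C/D snoRNAs, which are shown because SNHG29 is the member with the clearest change. Each of them overlaps an exon of an annotated SNHG29 transcript. The capitals mark the C box (any base, then TGATGA, within the first 25 bases) and the D box (CTGA) near the end. SNORD49B lies at chr17:16439505-16439576, SNORD49A at chr17:16440036-16440106 and SNORD65 at chr17:16441226-16441298, all on the plus strand of GRCh38.
SNORD49B: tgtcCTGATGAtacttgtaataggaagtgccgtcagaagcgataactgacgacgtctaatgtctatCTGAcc
SNORD49A: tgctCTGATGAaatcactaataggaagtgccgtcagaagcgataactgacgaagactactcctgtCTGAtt
SNORD65: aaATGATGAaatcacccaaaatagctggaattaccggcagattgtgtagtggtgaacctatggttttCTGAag
SNORD49A and SNORD49B share an unbroken run of 35 bases, whereas the longest run that SNORD65 shares with SNORD49A is 12 bases.

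SNHG17 holds 5 entries of the SNORA71 family of box H/ACA snoRNAs, and 3 of them are shown because SNHG17 has the largest difference in estimated transcript length among the members whose groups do not overlap in it. Each of these 3 overlaps an exon of an annotated SNHG17 transcript. The capitals mark the ACA box at the end. SNORA71A lies at chr20:38427309-38427442, SNORA71C at chr20:38429670-38429803 and SNORA71D at chr20:38433865-38433998, all on the minus strand of GRCh38.
SNORA71A: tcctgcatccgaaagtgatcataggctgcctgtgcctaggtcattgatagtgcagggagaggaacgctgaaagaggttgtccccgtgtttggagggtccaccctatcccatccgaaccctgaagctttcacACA
SNORA71C: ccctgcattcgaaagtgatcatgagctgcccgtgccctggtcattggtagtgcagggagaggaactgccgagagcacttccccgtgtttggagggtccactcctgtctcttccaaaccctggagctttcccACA
SNORA71D: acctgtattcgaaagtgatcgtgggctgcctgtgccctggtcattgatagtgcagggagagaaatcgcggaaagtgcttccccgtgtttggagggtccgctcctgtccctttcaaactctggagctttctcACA
Each of these 3 sequences is 134 bases long, and any pair of them shares an unbroken run of 22 or 23 bases.

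The libraries hold between 17689097 and 21668274 expected counts, which are RSEM's estimates of the number of reads from each gene. The targeted gene STBD1 falls from 15.4 ± 0.904 CPM in shControl to 9.94 ± 1.43 CPM in shSTBD1 (SD, n = 3 each), a log2 fold change of -0.64 ± 0.10 (SE, edgeR adjusted p = 0.00029). CPM are counts scaled by TMM to a common library size. The epithelial markers EPCAM, KRT8, KRT18, CDH1 and CLDN4 lie between 69.5 and 2010 CPM in all libraries. Of these, KRT8 (0.22), KRT18 (0.20), CDH1 (0.29) and CLDN4 (0.20) are higher in shSTBD1 on the log2 scale, without overlap of the groups (edgeR adjusted p from 0.00018 to 0.0014), and the part of this in the other results was not tested. PTPRC, a marker of blood cells, has no counts. PECAM1, COL1A2, ALB and GFAP stay under 1 CPM, while COL1A1 lies between 30.9 and 40.3 CPM.

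In TPM, the length-scaled unit that allows levels of different genes to be compared, the members span more than 3 orders of magnitude. Their summed level is 3306 ± 370 TPM in shControl and 3409 ± 68.0 TPM in shSTBD1 (SD, n = 3 each). The difference is smaller than the spread of the shControl libraries, which is wide because replicate 1 reaches 2891 TPM while replicates 2 and 3 reach 3603 and 3425 TPM. Without that library, the shSTBD1 mean lies 105 TPM below the shControl mean. SNHG6 has the highest mean over the 6 libraries, 569 TPM, followed by SNHG29 with 454 TPM, GAS5 with 391 TPM, SNHG1 with 246 TPM, SNHG8 with 225 TPM and ZFAS1 with 210 TPM. The ranges of SNHG29 and GAS5 overlap, as do those of SNHG1, SNHG8 and ZFAS1, so these neighbors are not separated by their spread. SNHG6 lies above SNHG29 in every library. SNHG19, SNHG5, SNHG16, SNHG32, SNHG9, SNHG12 and DANCR form the next tier, with means from 94.1 to 203 TPM. SNHG7, SNHG15, SNHG4, SNHG17, SNHG3, SNHG25 and EPB41L4A-AS1 follow with means from 27.3 to 49.8 TPM. SNHG10, SNHG26, SNHG11, SNHG20, SNHG21, SNHG30, SNHG22 and SNHG31 lie between 0.560 and 10.0 TPM.

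**Figure D1:**
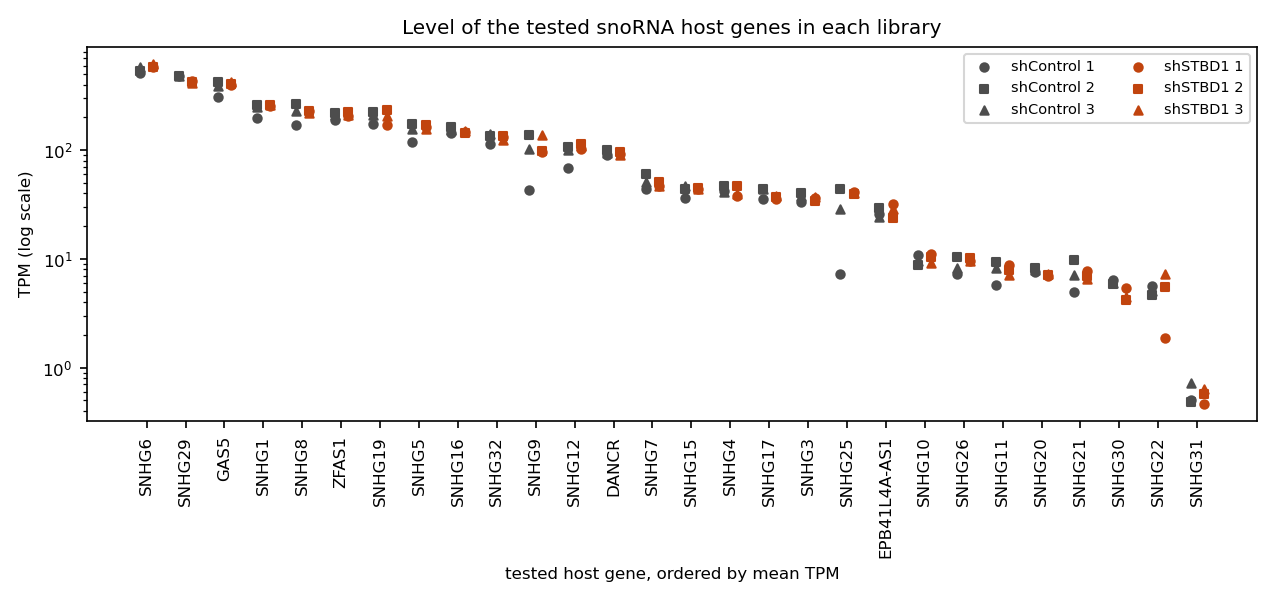
TPM (log scale) of the 28 tested host genes in each of the 6 libraries, ordered by mean TPM, with gray symbols for shControl and red symbols for shSTBD1. SNHG6 and SNHG29 lead, and in SNHG9, SNHG12 and SNHG25 the gray circle of shControl replicate 1 lies below the other 5 libraries.

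Of the 32 members, 28 hold enough counts to be tested. SNHG18 and SNHG27 are listed at 0 in every library. SNHG14, a long host gene of the Prader-Willi region, stays between 0.156 and 0.437 CPM, and SNHG28 between 0 and 0.271 CPM, with a posterior standard deviation as large as its count.

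SNHG29 is lower and SNHG6 higher in shSTBD1, and no other member passes the test in either direction. A gene is called at an adjusted p under 0.05 by edgeR's quasi-likelihood F-test, adjusted over 15566 genes. Among all tested genes, 8.22% are called higher in shSTBD1, and 1 of the 28 members is. Likewise, 7.54% of all genes are called lower, and 1 of the 28 members is. The members' shares of 3.57% in each direction lie below this background. The log2 fold change is positive in 16 members and negative in 12, with a median of 0.024 against 0.0023 for all genes. The SE of a member's log2 fold change has a median of 0.08 and runs from 0.03 to 0.44, against a median of 0.07 over all genes. The study's methods name a DESeq2 p under 1e-5 together with a cut on the TPM fold change, and looser p for other analyses. At an unadjusted edgeR p of 1e-5 without that cut, 2.38% of all genes and 0 of the 28 members pass. Further, 6 members, or 21.4%, have an unadjusted edgeR p under 0.05, against 30.0% of all genes.

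SNHG29 (ENSG00000175061), the host of SNORD49A, SNORD49B and SNORD65, spans chr17:16438767-16480249 on the plus strand. It has 252, 242 and 242 CPM in the shControl libraries and 218, 225 and 218 CPM in the shSTBD1 libraries. The highest shSTBD1 value lies under the lowest shControl value. In TPM the levels are 484, 485 and 485 in shControl and 431, 425 and 416 in shSTBD1, again without overlap. The log2 fold change is -0.15 ± 0.03 (SE, edgeR adjusted p = 0.0037), a decrease of about -10.1%. It is called lower by each count-based alternative and when any 1 library is left out, with log2 fold changes from -0.22 to -0.14, but not by limma on log2 TPM, where the adjusted p is 0.16 or 0.18. In RNA from a whole culture, fewer cells that express a gene and less RNA per cell cannot be told apart.

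Exons of SNHG29 share 500 bases with LRRC75A on the opposite strand. The library kit does not mark strand and the strand setting of the counting is not stated, so reads from the shared bases cannot be assigned to either gene. LRRC75A has 7.35, 6.03 and 6.65 CPM in shControl and 6.51, 6.82 and 7.60 CPM in shSTBD1. Per length its level is 2.85 to 3.36 TPM, against 416 TPM or more for SNHG29. Its log2 fold change is 0.06 ± 0.12 (SE, edgeR adjusted p = 0.78).

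SNHG6 (ENSG00000245910), the host of SNORD87, has 85.3, 93.4 and 95.9 CPM in shControl and 95.9, 102 and 104 CPM in shSTBD1. The groups meet at 95.9 CPM, and replicate 1 is the lowest library within each group. The log2 fold change is 0.14 ± 0.05 (SE, edgeR adjusted p = 0.048), a rise of 10.1%. The call is lost in 13 of 19 alternatives, over which the adjusted p runs from 0.0094 to 0.77. The log2 fold change is 0.136 with DESeq2 but 0.028 with length-curve offsets, and at its lowest 0.02, with those offsets and without shControl replicate 1. Leaving out shControl replicate 1 gives 0.089 with an adjusted p of 0.12, while the adjusted p without shControl replicate 2 is 0.053, without shSTBD1 replicate 2 it is 0.17 and without shSTBD1 replicate 3 it is 0.18. SNHG6 shares 1488 exonic bases with MCMDC2 on the opposite strand, which has between 0.21 and 0.41 TPM, against 513 TPM or more for SNHG6.

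GAS5 (ENSG00000234741), at chr1:173858559-173868882 on the minus strand, has 149, 191 and 170 CPM in shControl and 184, 189 and 196 CPM in shSTBD1. The groups overlap, since shControl replicate 2 lies inside the shSTBD1 range. The log2 fold change is 0.16 ± 0.06 (SE, edgeR adjusted p = 0.091). Without shControl replicate 1 it is 0.07 with an adjusted p of 0.24, and without shControl replicate 2 it is 0.25 with an adjusted p of 0.0022.

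SNHG1, a host of 7 box C/D snoRNA entries at chr11:62851978-62855953 on the minus strand, has 169, 207 and 205 CPM in shControl and 202, 213 and 211 CPM in shSTBD1. Apart from the first shControl library, the values lie within a narrow band. The log2 fold change is 0.11 ± 0.06 (SE, edgeR adjusted p = 0.21), and it is 0.02 without shControl replicate 1. SNHG8, the host of SNORA24 at chr4:118278703-118285316 on the plus strand, has 19.6, 29.4 and 24.9 CPM in shControl and 26, 25 and 25.3 CPM in shSTBD1, with a log2 fold change of 0.04 ± 0.10 (SE). The shSTBD1 values of SNHG8 lie inside the shControl range.

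ZFAS1, which holds SNORD12, SNORD12B and SNORD12C at chr20:49278178-49299600 on the plus strand, has 88.2, 93 and 96.2 CPM in shControl and 92, 99.9 and 93.8 CPM in shSTBD1. Its log2 fold change is 0.04 ± 0.04 (SE, edgeR adjusted p = 0.53). DANCR, the host of SNORA26 at chr4:52712325-52723623 on the plus strand, has 46.9, 48.7 and 48.5 CPM in shControl and 45.7, 48.6 and 45.5 CPM in shSTBD1. Its log2 fold change is -0.04 ± 0.05 (SE, edgeR adjusted p = 0.59). EPB41L4A-AS1, the host of SNORA13 at chr5:112160526-112164818 on the plus strand, has 22, 24 and 22.6 CPM in shControl and 20.6, 20.2 and 25.5 CPM in shSTBD1. Its log2 fold change is -0.05 ± 0.08 (SE, edgeR adjusted p = 0.75). In each of these 3 genes the groups overlap and the estimate is about as large as its SE or smaller.

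Of the members with smaller counts, SNHG12, which holds 4 box H/ACA entries and SNORD99, has 47.5, 66.3 and 66.5 CPM in shControl and 65.7, 69.4 and 70.5 CPM in shSTBD1. SNHG5, the host of SNORD50B, has 33.3, 43.4 and 39.8 CPM in shControl and 43.2, 45.6 and 43.1 CPM in shSTBD1. Their log2 fold changes are 0.19 ± 0.09 and 0.18 ± 0.07 (SE), with edgeR adjusted p of 0.15 and 0.11. Without shControl replicate 1 they are 0.045 and 0.076, with adjusted p of 0.54 and 0.39. SNHG30, the host of SNORD7, has 5.92, 5.12 and 5.37 CPM in shControl and 4.87, 3.86 and 4.08 CPM in shSTBD1, a log2 fold change of -0.36 ± 0.14 (SE, edgeR adjusted p = 0.095). The CPM of the groups do not overlap in SNHG29 and SNHG30, that is in 2 of 28 members or 7.14%, and in 33.6% of all tested genes.

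The other members are given by their log2 fold change alone, and none of them passes the test. On the higher side these are SNHG25 with 0.58, SNHG9 with 0.17, SNHG26 with 0.16, SNHG22 with 0.15, SNHG17 with 0.08, SNHG15 with 0.06, SNHG11 with 0.05, SNHG21 with 0.0053 and SNHG16 with 0.0036. On the lower side they are SNHG4 with -0.006, SNHG32 with -0.013, SNHG10 with -0.023, SNHG19 with -0.026, SNHG3 with -0.039, SNHG7 with -0.14, SNHG20 with -0.16 and SNHG31 with -0.26. SNHG25, SNHG9, SNHG22 and SNHG31 lie under 4 CPM in every library, and the SE of their log2 fold changes runs from 0.30 to 0.44. SNHG16, at 166 to 178 CPM, has an SE of 0.03, among the smallest of the members.

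The library shControl replicate 1 stands apart for these genes. It holds the lowest CPM of the 6 libraries in 15 of the 28 tested members, or 53.6%, whereas it is the lowest for 23.0% of all tested genes. The median member lies 0.11 below its mean over the 6 libraries on the log2 scale there (-0.11), and between -0.0038 and 0.082 in the other 5 libraries. The members take 0.133% of the counts in that library and from 0.146% to 0.155% in the others. The deviation of each gene in this library correlates with gene length, with a Pearson's r of 0.15 across 15566 genes, which are not independent replicates, against -0.10 to 0.04 in the other libraries. The tested members are short, with a median length of 854 bases against 2264 bases for all tested genes. The part of gene length in the levels of this library was not tested beyond the following fits. With offsets for a length curve fitted in each library, 0 members are called higher by edgeR and 4 have an unadjusted p under 0.05, SNHG29 (-0.22) and SNHG7 (-0.19) are called lower, and the median member has a log2 fold change of -0.036. These offsets call 2419 of the 15566 genes in either direction. Without shControl replicate 1 the median is -0.031, and SNHG29 and SNHG7 are again the members called lower, with 2614 genes called in all. The small positive median of all 28 members therefore does not keep its sign, whereas the lower level of SNHG29 does.

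RSEM also gives each gene a length, the mean length of its transcripts weighted by their estimated abundance, so that a change in length reflects a change in which isoforms the reads are assigned to. The length varies in 26 of the 28 tested members, and the groups do not overlap in 3 of them, SNHG17, SNHG10 and SNHG1. Over all tested genes whose length varies, the groups do not overlap in 11.1%, so the number of members is near the background. SNHG17, with 8 transcripts of 674 to 2138 bases, has a length of 984, 958 and 1011 bases in shControl and 1091, 1100 and 1096 bases in shSTBD1. The shSTBD1 mean is 111 bases, or 11.3%, longer, from 984 ± 26.4 to 1095 ± 4.66 bases (SD, n = 3 each). SNHG10, the host of SCARNA13, is shorter in shSTBD1, with 1090, 1143 and 1114 bases in shControl and 1050, 1066.5 and 1027 bases in shSTBD1. SNHG1 shortens from 1222 ± 6.28 to 1190 ± 3.17 bases (SD, n = 3 each), by -2.6%. For each of these 3 genes the exact permutation p is 0.1 (two-sided), the smallest that 3 libraries against 3 can give, so none of these differences can reach 0.05. In GAS5 the groups overlap, with 799 ± 14.8 bases in shControl and 801 ± 4.22 bases in shSTBD1.

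The length matters for the direction read from SNHG17. Its counts give 22.5, 25.7 and 27.8 CPM in shControl and 25.5, 27.3 and 27.6 CPM in shSTBD1, a log2 fold change of 0.08 ± 0.07 (SE, edgeR adjusted p = 0.48). In TPM, where the counts are divided by the length, it has 35.3, 44.1 and 43.7 in shControl and 35.8, 37.1 and 37.9 in shSTBD1, and limma on log2(TPM + 1) gives a log2 fold change of -0.14. Neither estimate passes its test, and the sign depends on the isoforms assigned.

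Grouped by the kind of snoRNA they hold, members of either direction are found in each group. The 10 tested members with only box C/D snoRNAs have a median log2 fold change of 0.024, with 6 positive and 4 negative. The 11 with only box H/ACA snoRNAs have a median of -0.006, with 5 positive and 6 negative. Grouped by the run of C and T at the start, the median is 0.0036 in 15 members with a run of at least 6 bases and -0.023 in 9 with a shorter run. These medians are descriptions of small sets and were not tested against each other. The snoRNAs themselves are nearly absent from the tables: of the 140 snoRNA genes inside members, 135 have no count in any library, 0 were tested by edgeR, and the highest value of the rest is 4.15 expected counts, for SNORA73A of SNHG3.

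Proteins that build snoRNA particles were examined as a linked list. Of 17 such genes, 3 are called higher and 0 lower by edgeR at an adjusted p under 0.05, against 8.22% and 7.54% of all genes. At an unadjusted edgeR p under 0.05, 7 are higher and 2 lower, against 15.3% and 14.7% of all genes. The median log2 fold change of the list is 0.03. SHQ1, an assembly factor of the pseudouridine synthase dyskerin, rises by 0.23 ± 0.05 (log2, SE, edgeR adjusted p = 0.0078). NAF1, which brings box H/ACA particles together, rises by 0.22 ± 0.07 (adjusted p = 0.036), and RUVBL2, an ATPase of the snoRNA particle assembly complex, by 0.14 ± 0.03 (adjusted p = 0.0091). With length-curve offsets, 2 genes of this list are called higher and 2 lower, and without shSTBD1 replicate 1 1 is called higher. Effective-length offsets and limma on log2 TPM call 0 of these genes.

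A further list holds 14 factors of nonsense-mediated decay and the exon junction complex. Of these, 4 are called lower and 0 higher by edgeR, against 7.54% and 8.22% of all genes. At an unadjusted edgeR p under 0.05, 5 are lower and 0 higher, against 14.7% and 15.3% of all genes. SMG6, the endonuclease of this pathway, has a log2 fold change of -0.17 ± 0.05 (SE, edgeR adjusted p = 0.031). UPF1, the central helicase, has -0.12 ± 0.03 (adjusted p = 0.019) and RBM8A, a core protein of the exon junction complex, -0.12 ± 0.04 (adjusted p = 0.035). The calls number 0 when shControl replicate 3, shSTBD1 replicate 1 or shSTBD1 replicate 3 is omitted, 2 without shControl replicate 1, and 1 without shSTBD1 replicate 2 or with length-curve offsets. DESeq2 calls 2 of them lower, and effective-length offsets and limma on log2 TPM call 0.

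Ribosomal protein genes, whose mRNAs open with the TOP element, were counted in the same way. Of 81 tested ribosomal protein genes, 25 are called higher and 0 lower, against 8.22% and 7.54% of all genes, but with length-curve offsets 4 are called higher and 2 lower, and with effective-length offsets or limma on log2 TPM 0 are called. At an unadjusted edgeR p under 0.05, 39 are higher and 0 lower, against 15.3% and 14.7% of all genes. Those called higher number 9 without shSTBD1 replicate 2 and 16 without shSTBD1 replicate 3. Their median log2 fold change over all 81 is 0.07 and their median length is 681 bases. Among those called higher are RPS26 with 0.28 ± 0.06, RPS28 with 0.26 ± 0.06 and RPL36A with 0.19 ± 0.04 (log2, SE, edgeR adjusted p from 0.0038 to 0.0078). Of 15 other mRNAs known for a TOP element, 2 are called higher and 2 lower, against 8.22% and 7.54% of all genes. Without shControl replicate 1 there are 4 called higher, without shSTBD1 replicate 1 or 2 there is 1, and 1 is called lower without shControl replicate 3 or any shSTBD1 library. With all 6 libraries the called genes are NPM1, a nucleolar chaperone, with 0.16 ± 0.03, EIF3E, a subunit of an initiation factor, with 0.12 ± 0.03, EEF1A1, which delivers tRNA to the ribosome, with -0.15 ± 0.03, and EEF1D, a subunit of its exchange factor, with -0.10 ± 0.03 (log2, SE, edgeR adjusted p from 0.00094 to 0.039). Of 5 regulators examined, LARP1, which binds the TOP element, is lower with -0.17 ± 0.03 (SE, edgeR adjusted p = 0.0021), and MYC, a transcription factor of ribosome genes, is higher with 0.12 ± 0.03 (adjusted p = 0.022). The call of MYC is lost without shControl replicate 3, shSTBD1 replicate 1 or shSTBD1 replicate 2. Effective-length offsets and limma on log2 TPM call neither LARP1 nor MYC, and call 0 to 1 of the 15 other TOP mRNAs. In the reported fit MTOR, RPTOR and MAX are not called. Of the 5 regulators, 2 are called lower with a replicate term, without a filter on low counts or with at least 10 counts in every library. Length-curve offsets call 2 of them higher and 1 lower.

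Protein-coding genes that hold a snoRNA include calls in both directions. They were listed by position on the same strand, and snoRNAs inside members were not left out, so some can share a locus with a member. Of 137 tested genes of this kind outside the ribosomal proteins, 12 are called higher, or 8.76%, and 17 lower, or 12.4%. Over all tested genes, 8.22% are called higher and 7.54% lower. The median log2 fold change of the 137 genes is -0.013. Those called lower number 10 without shSTBD1 replicate 2 and 7 without shSTBD1 replicate 3. Effective-length offsets call 4 higher and 7 lower, limma on log2 TPM calls 0 in either direction, and length-curve offsets call 13 higher and 19 lower. The called genes with the largest estimates are TMEM107 with 0.37 ± 0.09, MATR3 with -0.36 ± 0.11, ZBED3 with -0.29 ± 0.07 and PPP2R5A with 0.27 ± 0.05 (log2, SE, edgeR adjusted p from 0.00065 to 0.033). The MATR3 value belongs to the entry ENSG00000280987 alone, with 52.9 ± 6.72 CPM in shControl and 41.2 ± 8.36 CPM in shSTBD1 (SD, n = 3 each).

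Exons of 16 of the 28 tested members overlap exons of a gene on the opposite strand. Whether reads from these shared bases move the values of the members was not tested. Overlap with exons of genes on the same strand is not reported here. The posterior standard deviation that RSEM gives for the count is at most 2.49% of the count in the tested members, in SNHG21. It describes how stable the estimated split of shared reads is, and does not show how many reads are shared.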

How the data were processed

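HCT116 libraries of 3 shControl and 3 shSTBD1 replicates were grouped by their labels. The members and the linked lists were chosen with earlier results of these data known. STAR 2.7.1a (alignment to Hg38, Ensembl release 93) and RSEM 1.3.1 were run by the authors, who deposited 1 gene table per library. The deposited expected counts are not normalized, the deposited TPM values are counts per length at a fixed total, and the deposited lengths are weighted by isoform. Expected counts were rounded, filtered by edgeR's filterByExpr (15566 genes), scaled by TMM and tested in edgeR 4.0.16 (R 4.3.3) with the quasi-likelihood F-test, no replicate term and Benjamini-Hochberg adjustment over all tested genes. Each SE is the absolute log2 fold change over the square root of F. Depth ran from 17689097 to 21668274 expected counts. Positions and snoRNAs were taken from GENCODE release 44 on GRCh38, a later annotation than the authors' gene models, and start windows from RefSeq. Lengths were compared by exact permutation tests. All tested members are named, with every library for called members, the 6 with the highest TPM, and GAS5, ZFAS1, DANCR and EPB41L4A-AS1. The library values of SNHG12, SNHG5, SNHG30 and SNHG17, and the values of neighboring genes, were added after their values were seen. Alternatives were DESeq2 1.42.0, other scalings, filters and offsets for length, limma 3.58.1 on log2 TPM, a replicate block and leaving out each library. The edgeR step was tested on simulated data. The authors' posterior standard deviations of counts were used to judge how stable the split of shared reads is. Values of some genes of the linked lists and of neighboring genes are not reported here.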

Additional observations from a re-analysis of the deposited data

How the results depend on the processing

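The alternatives leave SNHG29 as the member that is called lower most often, in 17 of 19. At the unadjusted p of 1e-5, 0 members are called higher and 0 lower by edgeR, 6 have an unadjusted p under 0.05, and 371 genes are called in all against 2453 at an adjusted p under 0.05. The number of members called higher, 1 in the reported fit, is 0 with DESeq2 (3 members with an unadjusted p under 0.05), library size alone, upper-quartile factors, effective-length offsets or length-curve offsets, and 5 without a filter on low counts. Without that filter 2779 genes are called in all. Limma on log2(TPM + 1) or log2(TPM + 0.1) calls 0 members higher and 0 lower, with 3 at an unadjusted p under 0.05, and 56 or 32 genes in all, and STBD1 is not called either (adjusted p of 0.083 and 0.11). Effective-length offsets call 512 genes in all. Members called lower number 2 with length-curve offsets, which call 2419 genes in all. Leaving out 1 library gives 0 to 2 members called higher, 1 to 2 called lower, a median of -0.031 to 0.054 and 1445 to 2614 genes in all. The lowest values for all genes, 1445, 1517 and 1626, come without shSTBD1 replicate 2, 3 or 1. With members that overlap an exon on the opposite strand left out, 0 are called higher and 0 lower. This outcome was fixed in advance, since the called members SNHG29 and SNHG6 both have such an overlap. It therefore says nothing about their values. With length-curve offsets and without shControl replicate 1, an alternative chosen after seeing the data, 0 members are called higher and 3 lower (SNHG29, SNHG7 and SNHG32), and the median is -0.066. The causes of these differences were not tested.

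A replicate block leaves 4 members called higher (SNHG12, SNHG5, GAS5 and SNHG6) and 1 lower, and with the block and length-curve offsets 0 are called higher and 2 lower. Of all 15566 tested genes, 2579 are called in either direction with the block and 2542 with the block and those offsets. The numbers are not known to pair the libraries, since the labels do not say so. The deviations of same-numbered libraries correlate at 0.071, 0.068 and -0.0084 across genes. Genes are not independent replicates, so these values cannot decide whether the libraries are paired. Replicates 1 and 2 correlate best with their own number and replicate 3 does not.

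Some estimates of members change sign. Effective-length offsets give log2 fold changes of SNHG16 -0.048, SNHG17 -0.14, SNHG32 0.0095, EPB41L4A-AS1 0.097, SNHG10 0.086, SNHG21 -0.031, SNHG19 0.0047 and SNHG22 -0.056. Length-curve offsets give SNHG16 -0.024, ZFAS1 -0.031, SNHG21 -0.075 and SNHG8 -0.076, and with the replicate block added SNHG16 -0.025, ZFAS1 -0.032, SNHG21 -0.058, SNHG22 -0.0077 and SNHG8 -0.073. Library size alone gives SNHG4 0.0041. Limma on log2(TPM + 1) gives SNHG16 -0.058, SNHG17 -0.14, SNHG32 0.0015, EPB41L4A-AS1 0.085, SNHG10 0.070 and SNHG22 -0.18, and with 0.1 in place of 1 it gives SNHG16 -0.058, SNHG17 -0.14, SNHG32 0.0015, EPB41L4A-AS1 0.088, SNHG10 0.077 and SNHG22 -0.25. Length-curve offsets without shControl replicate 1 give SNHG16 -0.032, SNHG11 -0.07, ZFAS1 -0.038, SNHG17 -0.030, SNHG15 -0.016, SNHG10 0.028, SNHG21 -0.26, SNHG9 -0.24, SNHG1 -0.0098 and SNHG8 -0.18. Leaving out 1 library moves SNHG16 from -0.025 to 0.028, SNHG11 from -0.045 to 0.17, SNHG10 from -0.088 to 0.063, SNHG21 from -0.21 to 0.30, SNHG9 from -0.15 to 0.55, SNHG8 from -0.10 to 0.20, SNHG32 from -0.083 to 0.028, SNHG3 from -0.10 to 0.014, SNHG19 from -0.14 to 0.11, SNHG4 from -0.10 to 0.057, EPB41L4A-AS1 from -0.16 to 0.018 and SNHG22 from -0.27 to 0.47.

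The estimated length difference stays between 98.1 and 124 bases for SNHG17, -80.3 and -53.7 bases for SNHG10 and -34.1 and -28.2 bases for SNHG1 when any 1 library is left out, and the difference in summed TPM runs from -105 to 251.2 TPM.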
